A study of Mus musculus with 10 samples.

Results

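The heat shock and DnaJ chaperone genes were taken as every gene on the arrays whose symbol begins with Hspa, Hspb, Hsp90, Dnaja, Dnajb or Dnajc and a number, together with Hspd1, Hspe1 and Hsph1. Of the 76 genes of the name table that fit this rule, 71 had a probe, out of 18535 genes named on the array, and 119 probes stood for them. Dnajb5 and the pseudogenes Hspa9-ps1, Dnajb6-ps, Dnaja1-ps and Dnajc19-ps had no probe matched to them. The RNA came from the left hemibrains of 10 male C57BL/6J mice, each singly housed and given a diet enriched in n-3 PUFA from fish oil (FD) or standard lab chow (SD) from 3 weeks of age for about 20 weeks, to an age of 5 months. Hemibrain RNA carried Cy-5 and a common RNA carried Cy-3 on every array, and no array swapped the dyes. The labels do not settle the diets, since they enter FD for all 10 Cy-5 samples while describing the same samples as controls, and they call the Cy-3 RNA pooled SD hemibrain where the methods name a purchased reference RNA. Diets were therefore not compared, and values are given over the 10 arrays as log2 of the hemibrain over the reference signal, positive where hemibrain was brighter.

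Chaperones bind unfolded or partly folded proteins and keep them from clumping. Hsp70 proteins do so in cycles of ATP hydrolysis that DnaJ proteins start through their J domain and that Hsp110 proteins help to reset, and Hsp90 receives clients from Hsp70 to finish their folding. The small heat shock proteins hold unfolded clients without ATP, the mitochondrial chaperonin encloses them in a chamber, and in neurons some DnaJ proteins have taken on work at synaptic vesicles. Heat and misfolded protein switch on many of these genes through the factor HSF1, which binds inverted repeats of a short heat shock element, while stress of the endoplasmic reticulum acts through its own promoter elements.

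The labelled tissue was first set against marker genes, since every ratio depends on both RNAs. All 6 neuron markers well above background in both dyes were at least 2-fold higher in Cy-5 on every array, among them the neurofilament gene Nefl with a median log2 ratio of 8.34. Of the astrocyte markers 3 of 4 were higher, with the glutamate transporter Slc1a3 at 6.62 (log2) and Gja1 at 0.63. The proliferation genes ran the other way, with 4 of 4 at least 2-fold lower and Mki67 at -6.40 (log2). The Cy-3 RNA thus held less of these brain markers and more of the cell division genes than the hemibrains on all 10 arrays, and the ratios of the chaperone genes are to be read against such a reference. Fewer cells of a type and less RNA per cell cannot be told apart here, and the part of cell makeup in the chaperone ratios was not tested.

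Of the 71 chaperone genes, 60 were well above background in both dyes on all 10 arrays and enter the counts. At least 2-fold higher in Cy-5 on every array were 15 of the 60 (25.0%), against 18.3% of the 11368 genes measured in this way, and 6 of the 60 (10.0%) were at least 2-fold lower on every array, against 16.0% of all. The median log2 ratio was -0.13 over the chaperone genes and 0.02 over all genes. The 15 were Dnajc6, Hspa12a, Dnaja4, Hspa1a, Dnajc28, Hspa2, Dnajc12, Dnajc27, Dnajb2, Hsph1, Hspa1b, Hsp90aa1, Hspa12b, Dnajc16 and Dnajc7, and the 6 were Hspb11, Hspa4, Hspb2, Hspe1, Hspb1 and Dnajc3. The lower count includes Hspa4, of which a second probe ran the other way: without Hspa4, 5 of 59 (8.47%) were lower, and by that probe 16 of 60 were higher and 5 lower. Of 24 chaperone genes with several probes measured in both dyes, 16 had probe medians of one sign and 8 of both, and for Hspa4 and Dnajc5 2 probes were opposite on every array. Both counts moved between settings. With loess, which raised the median of all genes to 0.20, 16 of the 60 were higher (26.7%, against 20.5% of all genes) and 2 lower (3.33%, against 13.5%), which were Hspb11 and Hspa4. Without Hspa4, 1 was lower with loess. With normexp 3 were higher (5.00%, against 6.55% of all) and 1 lower. By place of work, the median log2 ratio was 1.15 (1.52 without Hspa4, 1.79 by its other probe) for the 11 cytosolic Hsp70, Hsp110 and Hsp90 genes, whose own medians ran from -1.95 to 2.97, and -0.60 for the 10 genes of the endoplasmic reticulum. It was -0.49 for the 8 mitochondrial genes, -1.59 for the 4 small heat shock genes measured and 0.21 for the 25 measured J protein genes given no place. These signs held under each normalization and background correction tried, but the groups differ in their share of J proteins and the differences between them were not tested.

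**Figure D1:**
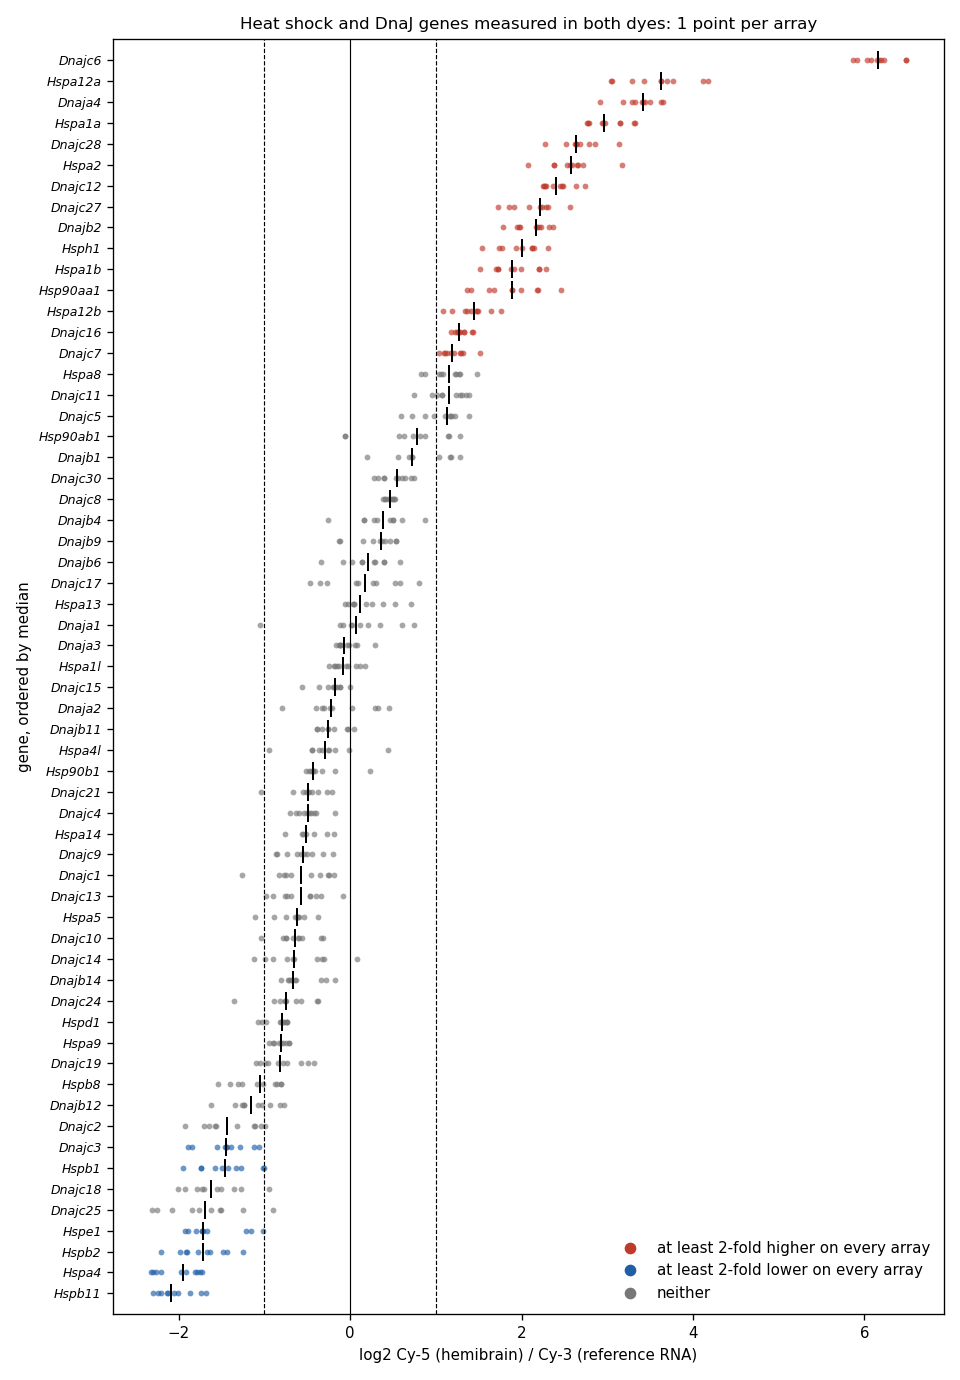
Log2 ratio of hemibrain (Cy-5) over reference RNA (Cy-3) on the horizontal axis for the 60 heat shock and DnaJ genes measured in both dyes, 1 point per array and a black line at each gene's median; dashed lines mark 2-fold. Dnajc6 stands at the top with a median of 6.16 and Hspb11 at the bottom with -2.09, and 15 genes lie wholly above the upper dashed line.

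**Figure D2:**
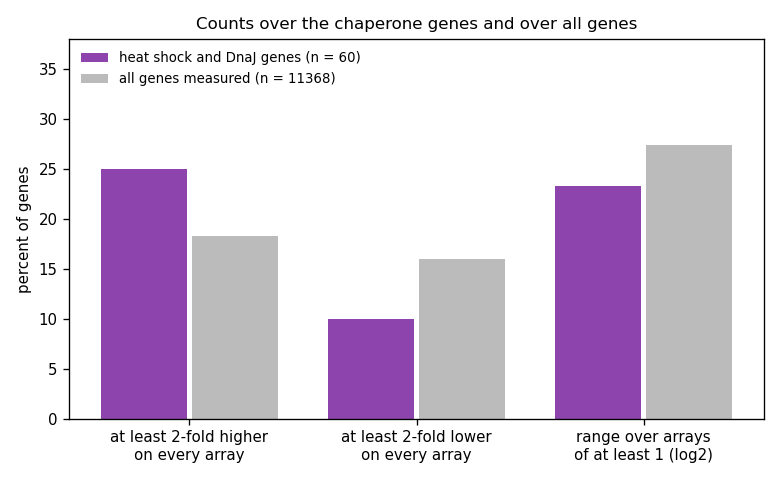
Percent of genes at least 2-fold higher on every array, at least 2-fold lower on every array, or with a range over the arrays of at least 1 on the log2 scale, for the 60 chaperone genes and for all 11368 genes measured. The bars of the chaperone genes stand at 25.0, 10.0 and 23.3 and those of all genes at 18.3, 16.0 and 27.4.

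Among the cytosolic Hsp70 genes, the heat-inducible pair Hspa1a and Hspa1b was higher in hemibrain. Hspa1a had a log2 ratio of 2.76 on the lowest array, 2.97 in the median and 3.32 on the highest, a 7.81-fold median difference. Hspa1b ran from 1.52 through 1.89 to 2.28 on the same scale. By their brightest probes the arrays of the 2 genes do not overlap. Their second probes do, at 2.44 to 3.29 for Hspa1a and, dim on some arrays, 0.70 to 2.69 for Hspa1b (log2). The genes are also near-identical copies and a probe for one can take up RNA of the other, so their separate values are uncertain. Hspa2, which is best known from the testis and is also made in neurons, lay between 2.07 and 3.17 with a median of 2.58 (log2). Hspa8 (Hsc70), the constitutive Hsp70 that also strips clathrin from vesicles, lay between 0.82 and 1.48 with a median of 1.15 (log2) and was positive on every array by its brightest probe, while a second probe ran from -0.60 to 1.24 with a median of 0.61. Hspa1l, the germ cell relative in the same cluster as Hspa1a, stayed between -0.24 and 0.17 (log2), and its sign turned with loess. Hspa14, which works at the ribosome, had log2 ratios of -0.76 to -0.19 over the 7 arrays that gave it a value. Hspa1a, Hspa1b and Hspa2 thus sat on the hemibrain side on all arrays, and Hspa1l and Hspa14 near or below 0.

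The promoters of the pair are printed because they were nearly alike over the 250 bases compared, and that of Hsph1 because Hsph1 is a further HSF1 target that was higher in hemibrain. All sequences are RefSeq promoters of build GRCm38.p6, each the 250 bases before the gene's farthest upstream start in the promoter table, read 5′ to 3′ on the gene's own strand, with a match to a heat shock element of 2 units (GAANNTTC or TTCNNGAA, which read alike on both strands) in capitals. Hspa1a lies on the minus strand at chr17:34972157-34972406, Hspa1b on the minus strand at chr17:34959239-34959488 and Hsph1 on the minus strand at chr5:149636337-149636586. The gene bounds of Hsph1 reach farther upstream than that start, so part of its window lies within them.
Hspa1a: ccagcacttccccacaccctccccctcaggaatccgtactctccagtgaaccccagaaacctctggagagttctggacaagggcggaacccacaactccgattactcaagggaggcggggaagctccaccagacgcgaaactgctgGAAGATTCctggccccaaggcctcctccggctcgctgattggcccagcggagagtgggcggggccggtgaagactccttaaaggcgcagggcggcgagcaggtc
Hspa1b: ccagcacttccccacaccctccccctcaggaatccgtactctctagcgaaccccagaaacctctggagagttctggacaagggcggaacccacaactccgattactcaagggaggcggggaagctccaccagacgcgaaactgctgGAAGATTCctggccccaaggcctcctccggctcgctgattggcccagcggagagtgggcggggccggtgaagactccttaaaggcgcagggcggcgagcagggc
Hsph1: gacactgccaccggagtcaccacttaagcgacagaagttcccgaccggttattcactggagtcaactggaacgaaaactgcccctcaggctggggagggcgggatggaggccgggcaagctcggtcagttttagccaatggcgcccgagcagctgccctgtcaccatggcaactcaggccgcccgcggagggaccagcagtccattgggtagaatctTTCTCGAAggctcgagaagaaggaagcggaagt
The promoters of Hspa1a and Hspa1b were alike at 247 of 250 bases and differed at 3. Promoters of 57 of the 71 genes were searched, and 10 of the 57 (17.5%) held either 2-unit element, against 13.0% of all 27025 promoters of that length. The 10 were Dnaja1, Dnajb6, Dnajc10, Dnajc27, Hspa1a, Hspa1b, Hspb1, Hspb3, Hspe1 and Hsph1. Their ratios ran both ways, with Hspa1a and Hsph1 on the hemibrain side and Hspe1 and Hspb1 on the reference side.

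The distant Hsp70 relatives were both higher in hemibrain. Hspa12a, which is strongly expressed in brain, ran from 3.05 to 4.17 with a median of 3.63 (log2), 12.4-fold at the median. Hspa12b, known from endothelial cells, ran from 1.08 to 1.76 with a median of 1.44 (log2). Of the endothelial markers, 3 of 3 measured were at least 2-fold higher on every array, with Cldn5 at 5.18 (log2), while Pecam1, too dim in the hemibrain channel on 1 array to be counted, stood at -0.22.

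The Hsp110 genes, which exchange nucleotide on Hsp70, differed from one another. Hsph1, the inducible one, had log2 ratios of 1.54 to 2.31 with a median of 2.01, 4.02-fold, over the 9 arrays with a value. Hspa4 stood at -1.95 (log2) in the median by its brightest probe and between -2.32 and -1.73 over the arrays. A second Hspa4 probe had a median of 1.79 (log2) and lay above 0 on every array, while another probe, above background in the hemibrain channel on 9 arrays, ran with the brightest at -3.43. The direction of Hspa4 thus rests on the probe chosen. Hspa4l had a median of -0.30 (log2) with a range of 1.39, and its probes disagreed too, at -0.30, -0.30 and 1.32. No direction is given for either gene.

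The Hsp90 genes differed from one another. Hsp90aa1, the inducible cytosolic form, lay between 1.36 and 2.46 with a median of 1.89 (log2), 3.71-fold. Hsp90ab1, the constitutive cytosolic form, had a median of 0.77 (log2) but spread from -0.06 to 1.29, and its second probe had a median of -0.20. Hsp90b1, the Hsp90 of the endoplasmic reticulum, had a median of -0.43 (log2) and was above 0 on 1 array, C10-434, at 0.23. Its second probe was below 0 on every array, from -1.87 to -0.84 with a median of -1.34 (log2). The inducible cytosolic gene was therefore the only Hsp90 gene at least 2-fold different on all arrays, and with normexp or the subtraction of background with a floor it was no longer so.

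Hspa5, the Hsp70 of the endoplasmic reticulum known as BiP, was lower in hemibrain on each of its 9 arrays, with log2 ratios of -1.11, -0.62 and -0.37 at the lowest, median and highest. Hspa13, which is anchored in microsomes, stayed near 0, from -0.06 to 0.70 with a median of 0.11 (log2), and a second probe stood at -0.89. Of the DnaJ partners of BiP, Dnajc3, which also restrains the kinases that halt translation, was the one at least 2-fold lower on every array, with a median of -1.45 (log2) and a span of -1.89 to -1.06. Its other probes had medians of -2.28, -0.76 and -0.60 (log2), and Dnajc3 was not 2-fold lower on all arrays with the mean of its probes, loess, normexp or the floor. Dnajb11 lay between -0.38 and 0.05 and Dnajc10, a disulfide reductase, between -1.04 and -0.32 on the log2 scale. Other probes of Dnajc10 had medians of -0.99, -0.62 and, dim on 1 array, -2.60. Dnajb9, a co-chaperone that draws BiP to the stress sensor IRE1, had a median of 0.36 (log2) and a low of -0.13, with other probes at 0.05 and -0.02. Dnajc1, Dnajb12 and Dnajb14, membrane J proteins of the same compartment, had medians of -0.57, -1.15 and -0.66 (log2), and Dnajb14 lay between -0.81 and -0.18. By their brightest probes, most of the 10 genes placed in the compartment thus lay on the reference side by less than 2-fold. The J protein genes given no place are not among them.

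The promoters of Hspa5 and Hsp90b1 are shown with the endoplasmic reticulum stress element (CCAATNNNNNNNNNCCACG, searched on both strands) in capitals, because both genes are classic targets of that response and had negative median ratios here. Hspa5 lies on the plus strand at chr2:34771840-34772089 and Hsp90b1 on the minus strand at chr10:86705445-86705694, both in GRCm38.p6.
Hspa5: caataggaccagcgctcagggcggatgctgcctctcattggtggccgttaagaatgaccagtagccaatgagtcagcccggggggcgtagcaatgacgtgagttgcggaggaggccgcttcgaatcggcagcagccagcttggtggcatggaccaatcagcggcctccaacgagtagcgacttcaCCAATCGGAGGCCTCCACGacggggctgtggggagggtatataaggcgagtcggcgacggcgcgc
Hsp90b1: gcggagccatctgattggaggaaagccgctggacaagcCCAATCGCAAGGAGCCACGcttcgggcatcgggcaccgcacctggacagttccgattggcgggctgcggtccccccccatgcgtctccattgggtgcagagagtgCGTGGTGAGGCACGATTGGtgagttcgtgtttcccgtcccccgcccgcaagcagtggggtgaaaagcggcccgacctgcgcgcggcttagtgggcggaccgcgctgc
The element was found once in Hspa5 and at 2 places in Hsp90b1. It was in 3 of the 57 chaperone promoters (5.26%), the other being Dnajc3, against 0.122% of all promoters of this length. Genes with the element had log2 medians of -1.45 (Dnajc3), -0.62 (Hspa5) and -0.43 (Hsp90b1). Of 17 other measured genes of folding and stress in this compartment, 0 were at least 2-fold higher and 3 lower on every array, where 18.3% and 16.0% of all genes were, and their median was -0.70 (log2). The 3 were the disulfide isomerase P4hb at -2.53, the stress factor Atf4 at -1.90 (log2) and Creld2.

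In mitochondria, the chaperonin subunits Hspd1 (Hsp60) and Hspe1 (Hsp10) were both lower in hemibrain. Hspd1 had log2 ratios of -1.08 to -0.74 with a median of -0.80, while a second probe ran from -3.16 to -1.77 with a median of -2.32. Hspe1 had log2 ratios of -1.92 to -1.02 with a median of -1.72, 3.29-fold. Hspa9, the Hsp70 of the matrix, lay between -0.95 and -0.71 (log2) with a median of -0.81 by its brightest probe and between -2.52 and -1.42 with a median of -1.70 by a second. Among its J proteins, Dnaja3 stayed near 0 with a median of -0.07 that changed sign with loess, and Dnajc15 and Dnajc19, parts of the import motor, had medians of -0.18 and -0.81 (log2). Dnajc11, of the inner membrane organising complex, went against the group with a median of 1.15 (log2) and a low of 0.74, and Dnajc30 stood at 0.54. Hspd1, Hspe1, Hspa9 and Dnajc19 were thus on the reference side while these 2 J proteins were on the hemibrain side. Of 8 other genes of mitochondrial folding and proteolysis, 0 were higher and 3 lower (18.3% and 16.0% of all genes), namely the protease Yme1l1 at -1.89, Hscb at -1.77 and the protease Lonp1 at -1.50 (log2).

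Hspd1 and Hspe1 lie head to head, and the promoter of Hspe1, on the plus strand at chr1:55087898-55088147 in GRCm38.p6, is shown with its heat shock elements in capitals because it alone among the chaperone promoters beside Dnajb6 held the element in 3 units (GAANNTTCNNGAA or its complement TTCNNGAANNTTC).
Hspe1: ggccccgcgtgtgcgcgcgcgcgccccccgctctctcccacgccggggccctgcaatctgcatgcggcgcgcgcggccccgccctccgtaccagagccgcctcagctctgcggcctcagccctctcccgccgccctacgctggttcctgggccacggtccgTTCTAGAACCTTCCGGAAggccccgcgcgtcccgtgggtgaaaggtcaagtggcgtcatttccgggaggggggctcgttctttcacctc
The capitals mark 3 overlapping 2-unit matches. The 3-unit form was in 2 of the 57 promoters (3.51%) and in 0.403% of all promoters.

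The 4 small heat shock genes measured in both dyes were lower in hemibrain, while Hspb3, dim in the reference, was on the hemibrain side. Hspb11, also called Ift25 and a part of the transport trains of cilia, had the lowest median of all 60 measured genes, -2.09 (log2), with arrays from -2.30 to -1.69, 4.25-fold lower. Hspb2, a partner of Hspb3 in muscle, had a median of -1.72 (log2), and Hspb1 (Hsp25), which guards actin filaments, one of -1.46. Hspb8, which works with Bag3 in autophagy, stood at -1.05 (log2) and reached -0.81. Bag3 itself was lower on every array, with a median of -2.53 (log2). The markers of smooth muscle and pericytes ran both ways. Of the 5 measured, 3 were at least 2-fold lower on every array, among them Tagln at -3.18 and Acta2 at -2.25 (log2). Myh11 was higher at 3.00 (log2), and Pdgfrb was lower by less than 2-fold. Rgs5, too dim in the reference channel to be counted, was on the hemibrain side on every array.

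The other small heat shock genes were dim in at least 1 dye. Hspb3 was clear of background on all 10 arrays in the hemibrain channel and on 4 in the reference channel, so that on the other arrays its ratio is only a lower bound; on those 4 its log2 ratios were 4.90 to 5.21. Hspb6, expressed in smooth and heart muscle, was clear of background on 9 arrays in the hemibrain channel and on all in the other, with a median of -1.79 (log2). Hspb7, the cardiac member, missed the background call on 1 array in each channel, and Hspb9, the testis member, on 1 array in the hemibrain channel. Their medians were 0.28 and -0.92 (log2). Of the related lens crystallins, Cryab, which glia also make, was higher in hemibrain at 1.65 (log2) on the median array, and Cryaa, at -0.08, was too dim in the hemibrain channel on 1 array.

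Several of the DnaJ genes higher in hemibrain have known work in neurons. Dnajc6 (auxilin), which recruits Hsc70 to uncoat clathrin vesicles at synapses, had log2 ratios of 5.87, 6.16 and 6.49 at the lowest, median and highest array, 71.4-fold at the median. All 10 arrays of Dnajc6 lay above those of every other chaperone gene measured in both dyes. Dnajc12, which assists the aromatic amino acid hydroxylases, had a median of 2.41 (log2), and Dnajc27, a GTPase with a J domain, one of 2.21 over 9 arrays and of 3.11 by a second measured probe. Dnajb2, a neuronal co-chaperone with ubiquitin-binding motifs, stood at 2.17 (log2). Dnajc5, the cysteine string protein of synaptic vesicles, had a median of 1.13 (log2) with a low of 0.60. Its second probe lay below 0 on every array at a median of -0.64, so the direction of Dnajc5 rests on the probe.

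Among the class A proteins, which resemble bacterial DnaJ most, Dnaja4 had a median of 3.42 (log2) and arrays from 2.92 to 3.65. Dnaja1 and Dnaja2, partners of Hsc70 in the cytosol, were near 0 with medians of 0.07 and -0.22 (log2). Dnaja1 also had the widest range of all 60 genes, 1.80, from -1.05 on C10-415 to 0.74 on C10-437, and its other probes had medians of 1.76 and 1.53. Of the class B proteins, Dnajb1 (Hsp40), the inducible partner of Hspa1a, was positive on each of its 9 arrays, from 0.20 to 1.29 with a median of 0.72 (log2), while a second probe stood at -0.41. Dnajb4 and Dnajb6, the latter a suppressor of polyglutamine aggregates, had medians of 0.38 and 0.21 (log2) and crossed 0 by their brightest probes, while the other probes of Dnajb6 lay above 0 on every array with medians of 0.88 and 1.27. Hspa1a, Hspa1b, Hsph1 and Hsp90aa1 were thus at least 2-fold higher on every array where the inducible J protein genes Dnajb1 and Dnaja1 were not, but with normexp only Hsph1 of the 4 was.

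Other J proteins of class C ran both ways. Dnajc28 had a median of 2.64 (log2) by its brightest probe, while its other probes, dim on 1 array, stood at 0.90 and 0.23. Dnajc16 and Dnajc7, the latter a co-chaperone that binds both Hsp70 and Hsp90, were at 1.27 and 1.19 (log2). A second Dnajc16 probe, above background in the hemibrain channel on 9 arrays, had a median of 0.46 and a low of -0.02. With the mean of its probes Dnajc16 stood at 0.87 (log2) and was not 2-fold higher on all arrays. Dnajc25 and Dnajc18 were low at -1.70 and -1.63 (log2) without passing 2-fold on every array, and Dnajc2, which works at the ribosome, was at -1.44. Dnajc13, an endosomal protein, had a median of -0.58 and Dnajc9, a histone chaperone, one of -0.55 (log2). Dnajc17, which lay between -0.47 and 0.81 (log2), was among the 5 of widest range. Of the remaining measured J genes, Dnajc4, Dnajc14, Dnajc21 and Dnajc24 had medians of -0.75 to -0.49 and Dnajc8 one of 0.46 (log2).

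Not well above background in both dyes on all arrays were 11 of the 71 genes, and none of them had another probe that was. Dnajb3, a testis-rich J protein, passed in the hemibrain channel on all 10 arrays and was not well above background in the reference channel on any, which gives only a bound: by means over the arrays its hemibrain signal was at least 14.9-fold the highest that the reference channel could have hidden, from 5.67-fold to 29.4-fold on single arrays, a bound that is open to dye bias because no dyes were swapped. Dnajc22 went the other way, passing in the reference channel on 10 arrays and in the hemibrain channel on 2, so that its ratio is mostly a bound on the reference side. Dnajb13, a sperm axoneme protein, passed in the hemibrain channel on 3 arrays and in the reference channel on 10. Dnajb7 was above background in neither dye on any array. Dnajb8, Dnajc5b and Dnajc5g missed the background call on 1 to 3 arrays, and Hspb3, Hspb6, Hspb7 and Hspb9 are described above.

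**Figure D3:**
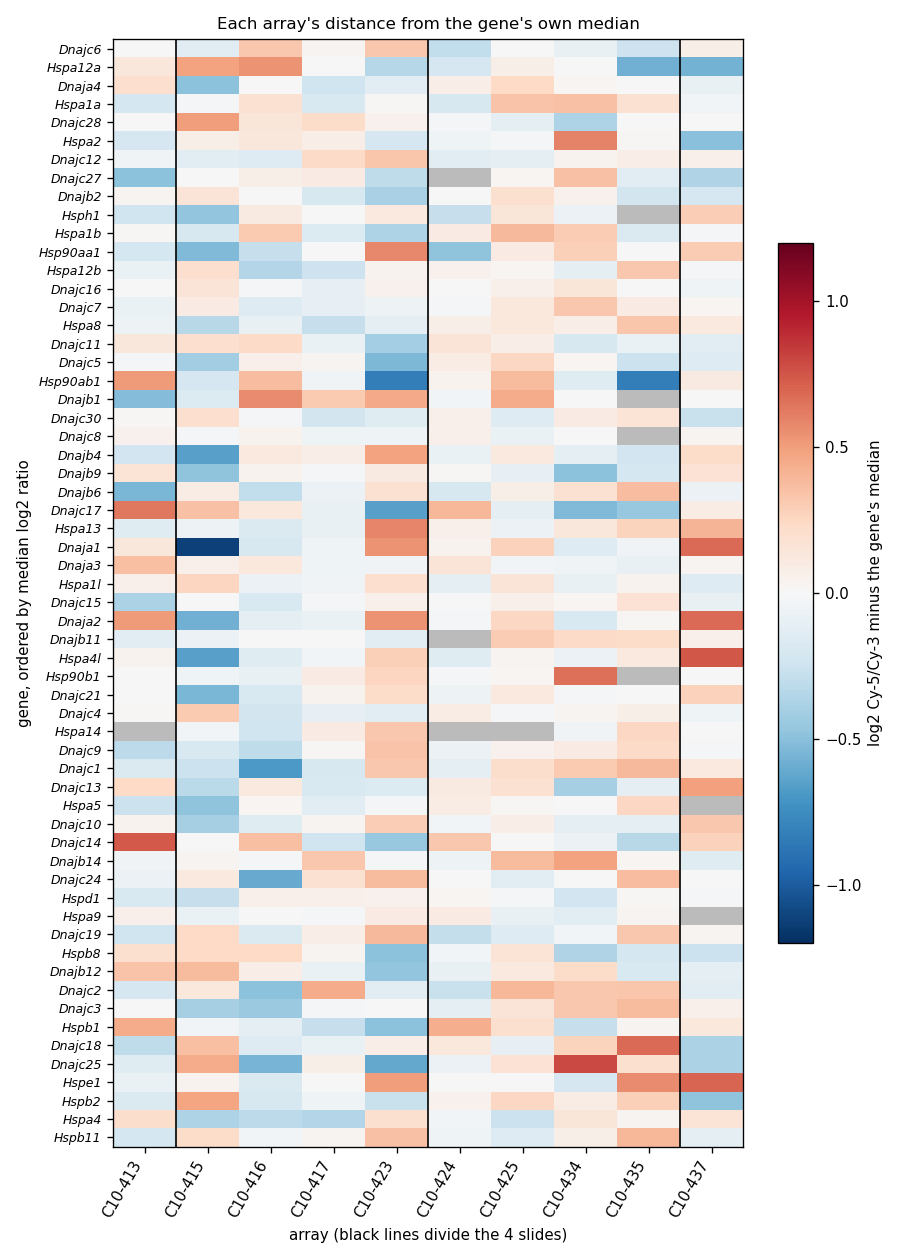
Distance of each array (columns, with black lines between the 4 slides) from the gene's own median log2 ratio for the 60 measured chaperone genes (rows), red where the array is higher and blue where it is lower; grey marks a value set aside as an outlying spot. The column of C10-415 holds the lowest value of 13 genes, with Dnaja1 at the deepest blue, and the highest value of 8.

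The spread over the 10 animals was then taken gene by gene. The range over arrays was at least 1 (log2) for 14 of the 60 genes (23.3%), against 27.4% of all genes, and the median range was 0.75 for the chaperone genes and 0.79 for all. The 5 widest were Dnaja1, Dnajc25, Hspa4l, Hsp90ab1 and Dnajc17, at 1.80, 1.41, 1.39, 1.34 and 1.28 (log2). At the other end stood Dnajc8, a splicing-associated J protein, with 0.14 over 9 arrays. The spread of the chaperones was thus near that of other genes. C10-415 gave the lowest value for 13 of the 60 (21.7%), against 13.7% of all genes, among them Hspa8, Hsp90aa1, Hsph1, Dnaja1, Dnaja2, Dnaja4, Dnajb4, Hspa4, Hspa4l, Hspd1 and Hspa5, and C10-416 for 11 (18.3%, against 9.48%). Below the share of all genes were C10-423 with 11 (18.3%, against 20.4%) and C10-413 with 7 (11.7%, against 18.9%), among others. Medians over the 60 genes ran from -0.22 on C10-415 to 0.21 on C10-437. C10-434 was the dimmest array in Cy-5, with 49.8% of probes well above background against 68.2% to 76.9% on the others, and without it 64 chaperone genes were measured, 15 of them higher and 7 lower (23.4% and 10.9%, against 18.6% and 17.8% of 13350 genes).

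Slides were the batch that could be compared. Between the 2 slides that hold 4 arrays each, limma called 30 of 40299 probes (0.0744%) at an adjusted p under 0.05 and 0 of the 111 chaperone probes with a value on all 8 arrays. At an unadjusted p under 0.05 were 5 of the 111 (4.5%), against 10.0% of all probes. The smallest adjusted p among them was 0.120, for a probe of Hspb2 that was 0.83 ± 0.17 (log2, SE, n = 4 and 4) higher on the slide of C10-424 and bright enough in the hemibrain channel on 4 of the 10 arrays. The brighter Hspb2 probe differed by 0.18 ± 0.19 (log2, SE; limma adjusted p = 0.923). Hspa8 was 0.36 ± 0.15 (log2, SE) higher on that slide by limma, with an adjusted p of 0.467 and arrays of 1.22 to 1.48 against 0.82 to 1.06, while its second probe differed by 0.04 ± 0.35 (log2, SE) and its slides overlapped. Since the slides held different animals, slide, labelling and animal cannot be told apart.

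Pairs of genes chosen by compartment and role were then correlated over the arrays, to see whether their ratios moved together between animals. Most pairs share a compartment, but Hspd1 with Hspa5 and Hspa1b with Hspa5 join different ones. For all 12 pairs Pearson's r was above 0, but the share of positive r over all pairs of genes was not computed. Of the 12, 0 passed an adjusted permutation p of 0.05. The highest r was between Hsph1 and Hsp90aa1, both HSF1 targets, with r = 0.74 (exact permutation p = 0.0254, adjusted p = 0.260, n = 9) and rho = 0.77 (exact permutation p = 0.0214, adjusted p = 0.221). Without the 2 arrays farthest from the Hsph1 median, C10-415 and C10-437, r was 0.58, and with slide means removed over the 2 full slides it was 0.70. On C10-415 both genes had their lowest value, 1.54 and 1.36 (log2). Of all other genes measured, 1.96% had a higher r with Hsph1 than Hsp90aa1 did. With normexp r was 0.90 and passed the correction (exact permutation, adjusted p = 0.00170, n = 9). With the floor it was 0.88 (exact permutation, adjusted p = 0.0620, n = 9). The arrays low in Hsph1 were thus mostly those low in Hsp90aa1, but by the main values the relation did not pass the correction.

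Dnajb1 and Hsph1 had r = 0.63 over 9 arrays (exact permutation p = 0.0686, adjusted p = 0.274) and rho = 0.72 (exact permutation p = 0.0369, adjusted p = 0.221), with r = 0.60 without the arrays farthest out, C10-416 and C10-413. With slide means removed, over the 7 arrays of the full slides with both values, r was 0.96 (exact permutation p within slides = 0.0139, adjusted p = 0.146). With normexp this pair had r = 0.00 over 9 arrays and with the floor 0.30, so the relation did not hold under every background correction. The 2 arrays on slides of their own, C10-413 and C10-437, are absent from that value, and Dnajb1 was low on C10-413 at 0.20 while Hsph1 was highest on C10-437 at 2.31 (log2). Hspd1 and Hspa5, the chaperones of mitochondrion and endoplasmic reticulum, had r = 0.66 over 9 arrays (exact permutation p = 0.0434, adjusted p = 0.260) and rho = 0.33 (exact permutation p = 0.385, adjusted p = 0.578). For that pair r was 0.55 without C10-415 and C10-434 and 0.85 with slide means removed (exact permutation p within slides = 0.0243, adjusted p = 0.146, n = 8), and 0.35 with the floor. Without C10-415 alone r was 0.38, and without C10-434 alone it was 0.81. With so few orders within slides, a pair of 7 arrays could not reach an adjusted p under 0.0833 by itself.

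By the main values the other pairs were weaker. Hspd1 had r = 0.52 with Hspa9 (n = 9), which turned to -0.09 without C10-415 and C10-434 but was 0.69 with slide means removed, 0.76 with the floor and 0.96 with normexp (exact permutation, adjusted p = 0.00165, n = 9). With Hspe1 it had r = 0.35 (n = 10), although the genes lie head to head. Hspa5 had r = 0.60 with Dnajb11 (n = 8), but -0.04 with slide means removed, and 0.26 with Hsp90b1 (n = 8). Hspa8 had r = 0.48 with Dnaja1 and 0.29 with Hsp90aa1 (n = 10). Without C10-415 these fell to 0.07 and 0.02. With the mean of probes Hspa8 and Dnaja1 had r = 0.81. With normexp Hspa8 and Hsp90aa1 had r = 0.89 (permutation test, adjusted p = 0.00648, n = 10). Hspa1b had r = 0.14 with Dnajb1, 0.18 with Hsph1 and 0.23 with Hspa5 (n = 9), and the last was -0.06 with slide means removed. Spearman's rho for these 9 pairs lay between -0.12 and 0.64, and their adjusted permutation p between 0.315 and 0.718 for r. Of all other genes measured, 4.11% had a higher r with Hspa5 than Dnajb11 did, the lowest such share of the 9 pairs. The highest share was 38.1%, for genes with a higher r with Hspa1b than Dnajb1 had.

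**Figure D4:**
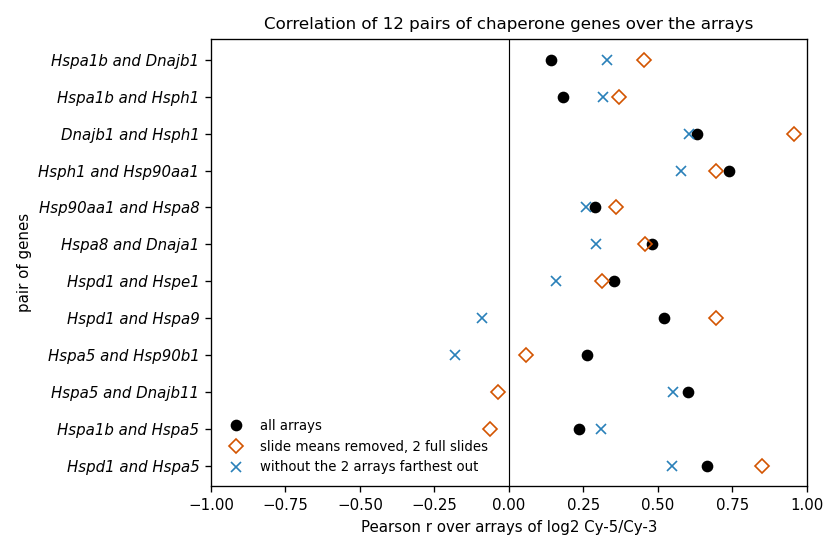
Pearson's r over arrays of the log2 ratios of 12 pairs of chaperone genes (filled circles), the same with slide means removed over the 2 full slides (diamonds) and without the 2 arrays farthest from the median of the first gene (crosses). All filled circles lie above 0, and the diamond of Dnajb1 and Hsph1 stands at 0.96.

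Genes around the chaperones were taken from lists by pathway. Of 20 measured genes of a list of HSF1 targets and Hsf1 itself, 13 of them among the chaperone genes, 5 were at least 2-fold higher on every array (Hspa1a, Hspa1b, Hsph1, Hsp90aa1 and Cryab) and 4 lower (Hspb1, Hspe1, Hspa4 and Bag3), with a list median of 0.09 (log2). By the other probe of Hspa4 the counts would be 6 and 3 and the median 0.32. Hsf1 had a median of -0.71 (log2). Of 27 co-chaperones of Hsp70 and Hsp90, 1 was higher, the neuronal Sgtb at 1.83 (log2), and 3 were lower, Bag3 at -2.53, St13 at -2.32 and Bag2 at -1.80, with a list median of 0.11. Of 15 subunits of the cytosolic chaperonin and of prefoldin, which hands it actin and tubulin, 1 was higher, Pfdn2 at 1.69 (log2), and 2 lower, Tcp1 at -1.53 and Cct4 at -1.51, with a list median of -0.82. Over all genes 18.3% were higher and 16.0% lower on every array.

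**Figure D5:**
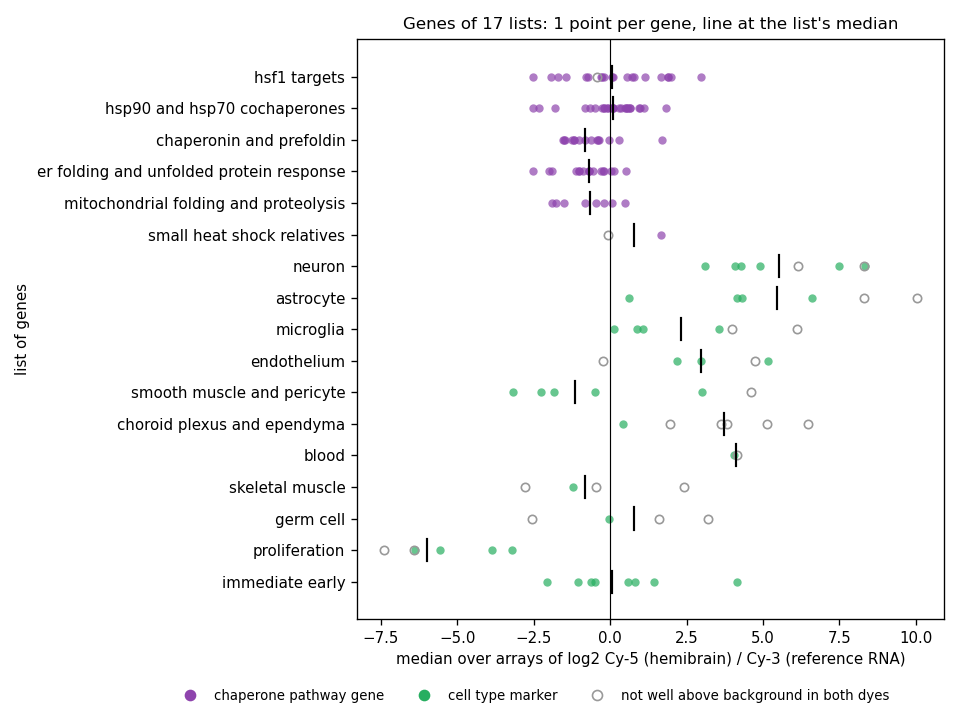
Median over arrays of the log2 ratio of hemibrain over reference RNA for every gene found of 6 chaperone pathway lists (purple) and 11 lists of cell type and state markers (green), with open circles for genes not well above background in both dyes on all arrays and a black line at the median of all genes found of each list. Neuron and astrocyte markers lie far to the right, proliferation genes far to the left, and the chaperone pathways in between.

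The other marker lists are given for the same reason as the first. At least 2-fold higher on every array were 1 of 4 measured microglia markers (Cx3cr1, 3.57 log2), the 1 measured blood gene (Hba-a1, 4.05) and 1 of 8 immediate early genes (Arc, 4.14), with Fos lower at -2.07. Of choroid plexus, skeletal muscle and germ cell markers 1 each was measured in both dyes, Folr1 at 0.42 (log2), Acta1, which was below 0 on every array, and Tnp1 at -0.03, and none was 2-fold different on every array. The filter on both dyes leaves out genes that are dim in the reference, and 4 more choroid plexus and 2 more microglia markers were clear of background in the hemibrain channel on all 10 arrays, with medians of 3.64 to 6.46 and 4.00 to 6.12 (log2) that are not counted. Also left out in this way were Alas2 of blood at 4.15, Ddx4 of germ cells at 3.20 and Myh4 of skeletal muscle at 2.43 (log2). The other uncounted muscle and germ cell genes, dim in the hemibrain channel on some arrays, ran from -2.79 (Tnnt3) to 1.60 (Dazl). The immediate early list had a median of 0.05 (log2).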

How the data were processed

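Per the labels and the file headers, the authors hybridised hemibrain RNA (Cy-5) and a common RNA (Cy-3) to 4×44k arrays on 4 slides and read them with the Feature Extraction software 10.10.1.1. The deposited processed and median signals are intensities on a linear scale, the deposited log ratio is a log10 of Cy-5 over Cy-3, and the other deposited columns are flags for outlying spots and spots well above background. The authors' deposited value table was set against these signals and held the log2 of the same ratio with no further centring. Log2 ratios were computed from the processed signals without control or outlier-flagged spots, averaging a probe's spots; a gene was judged on the arrays that gave it a value. Of 41174 probes, 27190 (66.0%) were named through RefSeq accessions (GRCm38.p6), and the brightest probe over both dyes stood for a gene. A probe was well above background when at least 0.5 of its spots were so flagged. No sample has a diet group, so arrays were not treated as replicates of a diet. The slide comparison used limma 3.58.1 in R 4.3.3 with Benjamini-Hochberg adjustment over all probes, and correlations used two-sided permutation tests, exact under 10 arrays (within slides where slide means were removed) and with 100000 resamples at 10, adjusted over the 12 pairs, with numpy 2.4.6 and pandas 2.3.3 under Python 3.11.15. Both were tested on simulated data. Alternatives were loess (span 0.3), median centring, normexp with an offset of 50 (on median signals, since mean signals were not used here), the deposited table, the mean of all probes of a gene, other filters and folds, and leaving out each array. Genes were described by value if they were Hspa, Hsp90, Hspb, chaperonin or chosen DnaJ genes, or among the 5 highest, 5 lowest or 5 widest; the values of other members are given as an account of the whole set. The members and lists were chosen with earlier results of these data known. The number of arrays limits the precision.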

Additional observations from a re-analysis of the deposited data

Results flagged for a closer look

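A value far from the other 9 arrays was found for 6 of 81 measures, where chance gives about 1 in 20, or 4.05 of 81. Dnaja1 was -1.05 (log2) on C10-415 against -0.12 to 0.74 on the others, and Dnajc24 was -1.36 (log2) on C10-416 against -0.89 to -0.38. Hsp90b1 was 0.23 (log2) on C10-434 against -0.52 to -0.17 on the other arrays with a value. C10-434 also stood apart in the neuron list, whose genes were 0.89 (log2) above their own medians there against -0.33 to 0.23 elsewhere, in the number of chaperone genes clear of background in Cy-5 (63 against 66 to 69), and in the percent of all probes clear of background in that dye (49.8 against 68.2 to 76.9). The part of the dim Cy-5 channel in the ratios of C10-434 was not tested.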

How the results depend on the processing

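The sign of all 21 genes at least 2-fold different on every array held under each of 6 settings of normalization, background, table and probe, one of which, subtraction of background with a floor, was chosen after seeing the data; the mean of probes does not show that 2 probes of Hspa4 are opposite in sign on every array. Median centring and the deposited table left the counts at 15 higher and 6 lower, with Dnajc25 in place of Hspb1 under median centring; leaving out each array gave 15 higher and 6 to 7 lower, median log2 ratios of -0.16 to -0.11 and 10 to 14 genes with a range of at least 1. The lower count was 2 with loess, 1 with normexp (4.17% of all genes), 2 with the floor (12.1% of all), 13 at 1.5-fold (21.7%, 23.4% of all) and 9 on 9 of 10 arrays (15.0%, 18.1% of all). Without Hspa4 the lower count was 1 with loess and 1 with the floor. The mean of probes gave 12 higher and 8 lower of 58 (20.7% and 13.8%, 16.3% and 16.2% of all), without Dnajc16, Dnajc28 and Hspa12a among the higher. Without Hspa4, 7 were lower. The other probes of Hspa12a had medians of 3.61 and 3.19 (log2) and were clear of background in the reference channel on 9 and 5 arrays. With the mean of probes, the lost call of Hspa12a is therefore not a fold under 2. Normexp gave 3 higher, which were Dnajb2, Dnajc6 and Hsph1, and with it 34 genes had a range of at least 1 (56.7%, 50.2% of all). Hspa12a had the largest shift of a median with normexp, -1.19 (log2), and was not 2-fold higher on all arrays. By the main values 45 had a range of at least 1.5-fold (75.0%, 76.7% of all). The median over the members turned to 0.028 with the floor, where that of all genes was 0.15. The split of higher among called members was 71.4% (53.4% of all genes), 75.0% without Hspa4 and 76.2% by its other probe. With loess it was 88.9% (94.1% without Hspa4, 60.3% of all) and with the floor 87.5% (93.3% without Hspa4, 59.3% of all). With the mean of probes it was 60% (63.2% without Hspa4, 50.1% of all). At 1.5-fold it was 58.1% (50.9% of all) and on 9 of 10 arrays 62.5% (52.7% of all). Between slides, limma called 0 probes with normexp, 68 among probes above background in Cy-5, 18 with an intensity trend, 1 with the floor and 0 to 18 without each array, and 0 member probes in every setting; member probes at an unadjusted p under 0.05 were 2 with normexp, 3 with the mean of probes, 3 with the floor and 3 to 10 without each array. Of the pairs, 3 passed with normexp (Hsph1 and Hsp90aa1, Hsp90aa1 and Hspa8, Hspd1 and Hspa9), where Dnajb1 and Hsph1 fell to r = 0.00; 0 passed without any array or with slide means removed, where pairs of 7 arrays could not pass alone. Where not given by construction, the cause was not tested. Signal over background limits the ratios of the 11 genes left out of the counts.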

Other observations

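In the list of chaperonin and prefoldin genes, C10-415 gave the lowest log2 ratio for Tcp1 (-2.36, median -1.53), Cct4 (-2.91, median -1.51), Cct6a (-3.45, median -1.01), Cct8 (-2.10, median -1.49), Cct2, Cct3, Cct6b and Vbp1. It gave the highest for Pfdn1 and Pfdn2, and Cct5 and Cct7 were lowest on other arrays. Over all genes C10-415 gave the lowest value for 13.7%. The list's centred median ran from -0.23 on C10-415 to 0.17 on C10-423 (log2) and was not set apart by the test for a far value. These genes were picked out after their values were seen.

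By array, the median log2 ratio over the measured chaperone genes was -0.02 on C10-413, -0.22 on C10-415, -0.21 on C10-416, -0.17 on C10-417, -0.09 on C10-423, -0.19 on C10-424, 0.04 on C10-425, -0.14 on C10-434, -0.17 on C10-435 and 0.21 on C10-437. Over all genes the same medians stayed between -0.02 and 0.05.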
